A study of Mus musculus with 20 samples.

Results

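Collagen genes were taken as the protein-coding genes whose symbol is Col, a number, the letter a and a number, and 44 of the 48795 genes in the deposited table met this rule. Of these, 11 encode fibrillar collagens, 8 encode basement membrane collagens and 25 encode other collagens. They were measured by RNAseq in whole mouse hearts at stage E13.5 of embryonic development, with 5 hearts in each of 4 groups. Dp3Tyb hearts carried the duplication Dp(16Mir802-Zbtb21)3TybEmcf of mouse chromosome 16, and the submitters labelled all 5 as having heart defects. Ts1Rhr hearts carried the shorter duplication Dp(16Cbr1-Fam3b)1Rhr, and 2 of the 5 were labelled with heart defects and 3 without. The study describes Ts1Rhr embryos as lacking congenital heart defects, which is at odds with the labels of those with defects, and hearts were grouped here by genotype alone. Each strain was set against 5 wild-type (WT) littermates, labelled wt_d and wt_t, which were taken here as the littermates of Dp3Tyb and of Ts1Rhr respectively. No agent was given to any group, the strains are kept on a C57BL/6J background, and the duplication is present in every cell of the embryo from the start of development. Replicate numbers follow the order of listing and only name a heart.

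Collagens are secreted matrix proteins in which 3 chains wind into a triple helix. Fibrillar collagens such as types I, III and V assemble into the fibres of the interstitial matrix, where they are made mainly by fibroblasts and other mesenchymal cells. Type IV chains instead form the sheet-like network of basement membranes under endothelium and around muscle cells, to which types XV and XVIII attach. The remaining collagens include the beaded filaments of type VI, chains that sit on the surface of fibrils, short-chain networks and chains that span the cell membrane. In the embryonic heart, collagens are known from the endocardial cushions and valves, the epicardium, the vessel walls and the basement membranes of the chambers.

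No collagen gene was in 3 copies. On the GRCm38.p6 build, the segment between the genes that bound the Dp3Tyb duplication runs over chr16:93369720-97962627 (4.59 Mb), and that of Ts1Rhr over chr16:93607837-97504936 (3.90 Mb). Both hold 0 collagens. The only collagen on chromosome 16 is Col8a1, at chr16:57624256-57754737, which lies 35.6 Mb and 35.9 Mb away from them. COL6A1, COL6A2 and COL18A1 lie on human chromosome 21 and are therefore in 3 copies in Down syndrome, but their mouse counterparts are on chromosome 10 and were in 2 copies in all 20 hearts.

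The upstream sequences of 2 abundant fibrillar collagens are shown because they hold different ones of the promoter motifs searched. Col1a2 (chr6:4505618-4541543, plus strand) encodes the α2 chain of type I collagen, and Col3a1 (chr1:45311538-45349706, plus strand) encodes type III collagen. The 250 bases before each start, chr6:4505368-4505617 and chr1:45311288-45311537 of GRCm38.p6 from RefSeq, read 5′ to 3′ on the plus strand:

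Col1a2: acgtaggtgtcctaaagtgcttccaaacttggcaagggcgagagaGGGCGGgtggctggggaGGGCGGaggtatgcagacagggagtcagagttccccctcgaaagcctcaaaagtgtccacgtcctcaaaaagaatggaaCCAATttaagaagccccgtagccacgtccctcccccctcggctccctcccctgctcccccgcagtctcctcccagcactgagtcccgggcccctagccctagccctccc

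Col3a1: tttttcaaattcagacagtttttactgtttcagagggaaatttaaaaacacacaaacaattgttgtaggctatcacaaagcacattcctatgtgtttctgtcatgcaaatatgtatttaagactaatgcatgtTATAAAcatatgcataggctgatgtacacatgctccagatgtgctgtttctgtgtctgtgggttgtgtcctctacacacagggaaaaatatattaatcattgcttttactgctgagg

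Capitals mark matches to the CCAAT box (CCAAT), the GC box (GGGCGG) and the TATA box (TATAAA), searched on both strands. The Col1a2 window held the GC box beginning 205 and 188 bases before the start and the CCAAT box beginning 109 bases before it. The Col3a1 window held TATAAA beginning 117 bases before the start. Over 38 windows found for 35 of the 44 collagens, 57.9% (22) held the GC box against 32.7% of all 32851 promoters in the table. CCAAT was in 34.2% (13) of them against 33.9% of all, and TATAAA in 13.2% (5) against 12.4%. A match describes the letters in the window only. RefSeq windows of the remaining 9 collagens were not used here.

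The 6 type IV genes lie in 3 head-to-head pairs, each pair sharing one region between genes transcribed in opposite directions. The gene records of Col4a1 (chr8:11198423-11312889, minus strand) and Col4a2 (chr8:11312805-11449287, plus strand) overlap by 85 bp, those of Col4a3 and Col4a4 on chromosome 1 overlap by 114 bp, and those of Col4a5 and Col4a6 on chromosome X lie 1274 bp apart. In the promoter table, the starts of Col4a1 and Col4a2 bound this stretch of 22 bases, chr8:11312805-11312826, shown on the plus strand, with a match to the GC box, which begins at base 8, in capitals:

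Col4a1-Col4a2: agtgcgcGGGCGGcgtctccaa

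Reads from the overlap of such a pair cannot be told apart unless the counting used strand, which is not given in the sources used here.

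Libraries held 6600839 to 19634514 reads. The collagens together took 0.533% to 1.48% of them (median 0.995%), from 35192 reads in the shallowest library, WT littermate 5 of Dp3Tyb, to 289963 reads in Ts1Rhr heart 5. Fibrillar genes made up 59.3% to 70.1% of the collagen reads, basement membrane genes 19.1% to 31.2% and other genes 9.42% to 10.8%. Just 3 genes, Col3a1, Col1a1 and Col1a2, gave 46.6% to 58.8% of the collagen reads, and with Col4a1 and Col4a2 the share reached 67.0% to 71.8%. The hearts differed in 2 other ways that touch the collagens. A list of 13 lung and foregut markers was low in 5 hearts, and reads of mitochondrial genes took 4.85% to 19.5% of a library, with over 10% in 7 hearts. Both are given beside the results they move with. The cardiomyocyte marker Myh7, the slow cardiac myosin, was at 88996 to 182684 normalised reads.

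Levels between genes were compared as normalised reads per kb of the canonical transcript, as mean ± SD over the 10 WT hearts. Fibrillar collagens led. Col3a1 had 5903 ± 1127, Col1a1, the α1 chain of type I collagen, 4246 ± 1053, and Col1a2 3609 ± 996. Col5a2 and Col5a1, chains of the type V collagen that starts type I fibrils, followed with 1037 ± 62.1 and 853 ± 169. Col2a1, the main collagen of cartilage, was at 283 ± 42.0, Col11a1 at 109 ± 23.2 and Col27a1 at 76.0 ± 15. The last 3 fibrillar genes, Col24a1, Col11a2 and Col5a3, lay between 2.5 and 16.1. The order depends on the length used. Per kb of all exons merged, Col1a1 led at 3834, before Col3a1 at 3196, Col4a1 at 1990 and Col1a2 at 1529. Col26a1 moved from rank 14 of the 44 to rank 23.

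The basement membrane genes spanned a range of the same kind. Col4a1 and Col4a2, the common chains of the type IV network, reached 2246 ± 291 and 1399 ± 144 normalised reads per kb. Col18a1, whose C-terminal fragment is endostatin, was at 1196 ± 173, below Col4a2 by little more than the spread of either gene. Next came Col4a5 at 585 ± 105, Col4a6 at 172 ± 35.5 and Col15a1 at 113 ± 29.8. Col4a4 and Col4a3, chains of the mature kidney glomerulus, were at 4.59 ± 0.634 and 3.56 ± 1.09. These last 2 did not differ beyond their spread.

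Among the other collagens, the beaded filament chains Col6a1 and Col6a2 came first, at 606 ± 130 and 445 ± 89.3 normalised reads per kb, with Col6a3 at 191 ± 41.1. The fibril-associated Col16a1 followed at 259 ± 79.4 and Col26a1 at 220 ± 63.1. Col23a1, a membrane-spanning collagen, was the steadiest of these at 159 ± 11.8. Another 7 genes, Col9a2, Col14a1, Col9a1, Col13a1, Col12a1, Col9a3 and Col25a1, lay between 66.8 and 158, and their spreads made most neighbours in that order inseparable. Col6a6 and Col8a2 were at 60.3 and 56.4, Col8a1 at 17.4 and Col7a1, the anchoring fibril chain of skin, at 7.54. The remaining 8 genes were under 4, down to Col10a1, the collagen of hypertrophic cartilage, which had 3 reads in all 20 libraries. Of 8 cartilage markers, Matn1 was at 0 in 15 libraries and reached 1.2 normalised reads at most, and Matn3 reached 11.6. The others were measured in all 20 libraries, with Hapln1, also known from the cardiac cushions, at 882 to 2526, Sox6 at 364 to 544, Sox5 at 170 to 340, Acan at 95.5 to 212, Comp at 28.0 to 57.7 and Cnmd at 15.1 to 47.8.

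**Figure D1:**
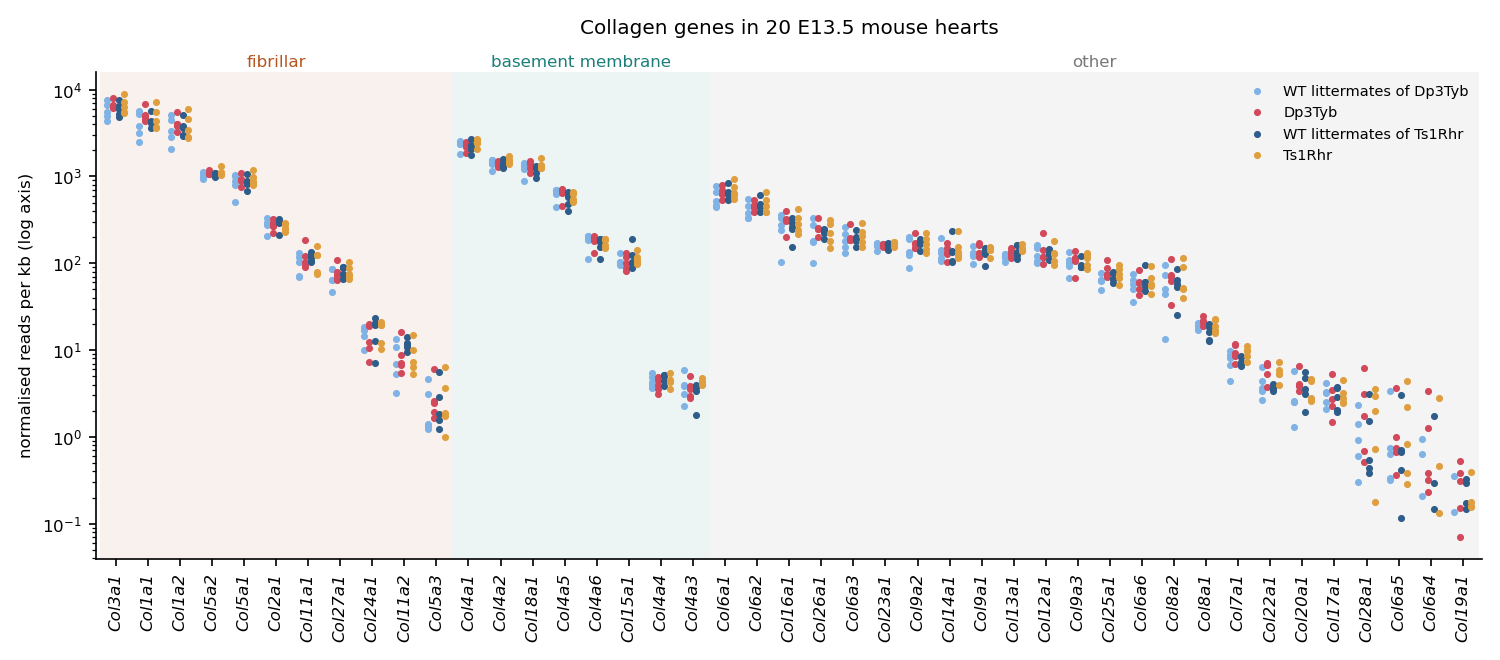
Normalised reads per kb of canonical transcript (log axis) of 43 collagen genes, grouped as fibrillar, basement membrane and other and ordered by mean WT level. Each point is 1 heart, coloured by group, zeros are not drawn, and Col10a1, with 3 reads in all, is left out. The 4 groups overlap at nearly every gene, and WT means run from 5903 for Col3a1 down to 0.143 for Col19a1.

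Some chains that assemble into one molecule kept a steadier ratio than either chain alone, and others did not. Across the 20 hearts, Col1a1 per kb was 1.22 ± 0.0856 times Col1a2 (SD, n = 20), between 1.12 and 1.47, and the log2 ratio had an SD of 0.098 against 0.37 and 0.39 for the single genes. The Col4a1 to Col4a2 ratio was 1.60 ± 0.0685, with an SD of 0.063 on the log2 scale against 0.18 and 0.14. Col6a1 to Col6a2 was 1.40 ± 0.0770 and Col4a5 to Col4a6 was 3.44 ± 0.189, with log2 SDs of 0.081 and 0.076. For type V the log2 ratio of Col5a1 to Col5a2 had an SD of 0.19, larger than the 0.11 of Col5a2 alone. Type IX was mixed, with 0.26 for Col9a2 to Col9a1 against 0.22 for Col9a1 alone, but 0.23 for Col9a2 to Col9a3 against 0.31 and 0.29 for the single genes. Col4a3 to Col4a4, whose genes also lie head to head, was 0.873 ± 0.246, and Col11a1 to Col11a2 was 13.4 ± 5.45. Col4a3 had 8 to 55 reads per library, Col4a4 15 to 72 and Col11a2 7 to 142, so counting error widens both ratios. Col1a1 to Col3a1, chains of different molecules, also kept a steadier ratio, 0.730 ± 0.0739, with a log2 SD of 0.15 against 0.37 and 0.26. Between the fibrillar and basement membrane classes the ratio moved, and Col1a1 to Col4a1 ran from 1.30 to 3.09. These ratios are descriptions across hearts that share a protocol and differ in depth, and no test was made on them.

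Dp3Tyb was compared with its own WT littermates to see whether a duplication that gives heart defects changes collagen expression. No collagen gene passed the test. Of the 44, 39 passed the filter on low values (10 or more normalised reads in at least 5 of the 10 hearts) and were tested (all 11 fibrillar, all 8 basement membrane and 20 other genes), and 0 of 39 were called by limma at an adjusted p under 0.05, against 0.0542% of all 14763 genes tested. At an unadjusted p under 0.05 there was 1 (2.8% of all genes), and DESeq2, edgeR and limma-voom on the recovered reads also called 0, with 1 each at an unadjusted p under 0.05. By limma that count was 7 without WT heart 1 (3.65% of all genes) and 5 with the mitochondrial share as a term (11%). In the remaining fits it was 0 to 2. Not tested in either strain were Col6a4, Col19a1, Col10a1, Col28a1 and Col6a5.

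Type I and type III collagen were the genes with most reads. Col1a1 had 33632, 22852, 31026, 18980 and 14777 normalised reads in WT hearts 1 to 5 and 27269, 28941, 29811, 40471 and 25437 in Dp3Tyb hearts 1 to 5. The groups overlapped, with 3 of the WT hearts below every Dp3Tyb heart. The log2 change was 0.37 ± 0.22 (SE), with a 95% interval from -0.11 to 0.85 and adjusted p = 1.0. For Col3a1 the WT hearts had 41938, 30672, 36483, 27796 and 23931 and the Dp3Tyb hearts 35924, 35337, 37025, 44046 and 33793, again with 3 WT hearts below all Dp3Tyb hearts. Its log2 change was 0.23, with an interval from -0.09 to 0.56. The intervals of both genes include 0.

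Basement membrane collagens sat closer to no difference. Col4a1 had 15414, 16708, 15625, 16334 and 11973 normalised reads in the WT hearts and 15385, 16659, 15661, 14587 and 12371 in the Dp3Tyb hearts. The values interleaved, and the log2 change was -0.02 with an interval from -0.27 to 0.22. Col4a2 changed by -0.005 (-0.21 to 0.20). Col18a1, with 4950 to 7975 in WT and 6186 to 8351 in Dp3Tyb hearts, changed by 0.13 (-0.16 to 0.41), and by 0.013 without WT heart 5, the lowest of the 10.

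Col6a1 and Col6a2, like Col18a1, have human counterparts on chromosome 21. Col6a1 had 3144, 2139, 2683, 1898 and 1814 normalised reads in the WT hearts and 2212, 2551, 2851, 3272 and 2579 in the Dp3Tyb hearts, and the log2 change was 0.23 (95% interval -0.12 to 0.57). For Col6a2 the change was 0.19 (-0.12 to 0.50), over 1987 to 3259 in WT and 2346 to 3226 in Dp3Tyb hearts. In both genes the groups overlapped.

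The single collagen with an unadjusted p under 0.05 in the main limma fit was Col25a1, a membrane-spanning collagen known from neurons. It had 201, 128, 165, 167 and 170 normalised reads in the WT hearts and 198, 180, 191, 282 and 229 in the Dp3Tyb hearts. Hearts 4 and 5 of Dp3Tyb were above every WT heart and the other 3 were below WT heart 1, so the groups overlapped. The log2 change was 0.37 (95% interval 0.05 to 0.70, unadjusted p = 0.0289, adjusted p = 1.0 by limma). With the marker score as a term it was 0.23 (unadjusted p = 0.147 by limma), and when single libraries were omitted 0.27 to 0.44. Col22a1, a collagen of tissue junctions, changed by 0.54 (-0.02 to 1.09), over 23.5 to 56.8 in WT and 32.9 to 63.0 in Dp3Tyb hearts.

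As a class, 31 of the 39 collagens had a coefficient above 0, against 48.9% of all genes, and their median log2 change was 0.16, against -0.003 over all genes tested. Fibrillar genes had a median of 0.20 (9 of 11 above 0), other genes 0.19 (19 of 20) and basement membrane genes -0.01 (3 of 8). These counts and medians moved with the hearts compared. Omitting single libraries gave medians over all 39 of 0.050 to 0.22 and Col1a1 changes of 0.21 to 0.51. Of the 5 WT hearts, 3 (2, 4 and 5) were among the hearts low in lung and foregut markers, and no Dp3Tyb heart was. Those 3 also held the lowest Col1a1 and Col3a1 of the WT hearts. Without them, which leaves 2 WT hearts and was chosen after the values were seen, the median became -0.12 and 8 of 39 coefficients were above 0 (48.2% of all genes), Col1a1 changed by -0.11 and Col3a1 by -0.08, and 0 collagens were called. With the marker score as a term in the fit instead, the median was -0.03. WT heart 5 was also the shallowest library, with 19.5% mitochondrial reads. Without it alone, 24 of 39 coefficients were above 0 (49% of all genes). Summed over the 13 markers, the level was 634 to 1361 in WT and 789 to 1773 in Dp3Tyb hearts. Fibroblast and mesenchyme markers summed to 33938 to 43371 in WT and 35468 to 45102 in Dp3Tyb hearts. Their mean centred log2 level, in which each marker weighs the same, was -0.16 to -0.032 in WT and -0.045 to 0.13 in Dp3Tyb hearts, with 4 of 5 Dp3Tyb hearts above every WT heart. That of 6 epicardium markers was -0.066 to 0.0085 and -0.18 to 0.12, with 3 of 5 Dp3Tyb hearts above and 1 below every WT heart. Cartilage markers were at -0.066 to -0.025 and -0.068 to 0.14, also with 3 of 5 above and 1 below. The part of these cell markers in the result was not tested. In whole hearts, fewer cells of a type and less RNA per cell cannot be told apart.

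Ts1Rhr, with the shorter duplication, was compared in the same way. Again no collagen gene passed. Of the same 39 genes, 0 were called by limma at an adjusted p under 0.05, against 0.0269% of all 14867 genes. At an unadjusted p under 0.05 there were 2 (5.52% of all genes), and DESeq2, edgeR and limma-voom called 0, with 2, 1 and 3 at an unadjusted p under 0.05. By limma that count was 7 with the marker score as a term (3.63% of all genes) and 12 with the mitochondrial share as well (7.37%). It was 9 with array weights (17.9%), 5 without WT heart 5 (11.2%) and 1 to 3 in the remaining fits.

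The smallest p was that of Col22a1. It had 32.4, 35.8, 31.4, 32.5 and 29.9 normalised reads in WT hearts 1 to 5 and 34.7, 64.4, 51.5, 47.3 and 46.8 in Ts1Rhr hearts 1 to 5. Of the Ts1Rhr hearts, 4 were above every WT heart and heart 1 was just below the highest. The log2 change was 0.56 (95% interval 0.19 to 0.93, unadjusted p = 0.00659, adjusted p = 0.795 by limma). Col22a1 is a low gene, with 3.89 normalised reads per kb in WT hearts and 8 to 87 reads per library.

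Col18a1 was the other. Its levels were 6093, 7096, 7397, 5296 and 6737 normalised reads in WT hearts and 6907, 7067, 9099, 7508 and 7430 in Ts1Rhr hearts, with heart 3 highest. The log2 change was 0.22 (interval 0.001 to 0.45, unadjusted p = 0.0490, adjusted p = 0.795 by limma). With the marker score as a term it was 0.15 (unadjusted p = 0.226 by limma), with the mitochondrial share as well 0.081 (unadjusted p = 0.192 by limma), and when single libraries were omitted 0.15 to 0.27. Only Col4a3 had groups that did not overlap, as 1.12% of all genes did, with 32.4, 33.6, 28.7, 15.3 and 32.3 in WT hearts and 34.7, 38.1, 33.8, 40.4 and 35.1 in Ts1Rhr hearts. Its log2 change was 0.39 (interval -0.08 to 0.86), and at 8 to 55 reads per library its counting error was large.

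No fibrillar collagen had an unadjusted p under 0.05 in the main limma fit. Col1a1 had 25660, 21330, 24316, 25238 and 33981 normalised reads in WT and 21372, 25768, 22115, 32676 and 43024 in Ts1Rhr hearts, with 4 of the Ts1Rhr hearts inside the WT range and heart 5 above it, and the log2 change was 0.12 (interval -0.29 to 0.52). Ts1Rhr heart 5 alone held the highest Col1a1, Col1a2, Col3a1, Col5a1, Col5a2 and Col6a1 of all 20 hearts. Without it Col1a1 changed by -0.04 and the median collagen change was -0.001. Without hearts 1 and 3 of Ts1Rhr, which were low in lung and foregut markers, Col1a1 changed by 0.36, and with the marker score as a term by 0.39 (unadjusted p = 0.0274, adjusted p = 0.982 by limma). Col3a1 changed by 0.13 (-0.21 to 0.46), by 0.30 and 0.31 in those fits, by 0.013 without heart 5 and by 0.040 with the mitochondrial share as a term. Col4a1 changed by 0.17 (-0.06 to 0.40), Col4a2 by 0.15 (-0.02 to 0.32), Col6a1 by 0.11 (-0.22 to 0.44), Col6a2 by -0.003 (-0.34 to 0.34) and Col25a1 by 0.09 (-0.22 to 0.40). Over the 14 alternatives, Col4a1 was at 0.037 to 0.20 and Col4a2 at 0.043 to 0.18. When single libraries were omitted, Col4a1 was at 0.097 to 0.24 and Col25a1 at 0.0063 to 0.20.

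The median log2 change of the 39 collagens was 0.11 in Ts1Rhr, against -0.002 over all genes, and 28 of 39 coefficients were above 0, against 49.6% of all genes. It was 0.07 for fibrillar genes (7 of 11 above 0), 0.15 for basement membrane genes (6 of 8) and 0.11 for other genes (15 of 20). Here the hearts low in lung and foregut markers were on the other side, Ts1Rhr hearts 1 and 3, and without them the median rose to 0.20 with 35 of 39 coefficients above 0 (50% of all genes) and still 0 called. Summed levels of the 13 markers were 858 to 1409 in WT and 689 to 1279 in Ts1Rhr hearts, and fibroblast and mesenchyme markers summed to 35961 to 39671 and 36511 to 42439, with mean centred log2 levels of -0.096 to 0.038 and -0.061 to 0.18 and 3 of 5 Ts1Rhr hearts above every WT heart. The same level of 4 macrophage markers was -0.46 to 0.073 in WT and -0.34 to 0.46 in Ts1Rhr hearts, with 4 of 5 above every WT heart. That of 6 epicardium markers was -0.098 to 0.070 and -0.031 to 0.11, with 3 of 5 above every WT heart. The part of these markers in the result was not tested. Mitochondrial reads took over 10% of 3 WT and 2 Ts1Rhr libraries, and with that share as a term the median was 0.03.

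**Figure D2:**
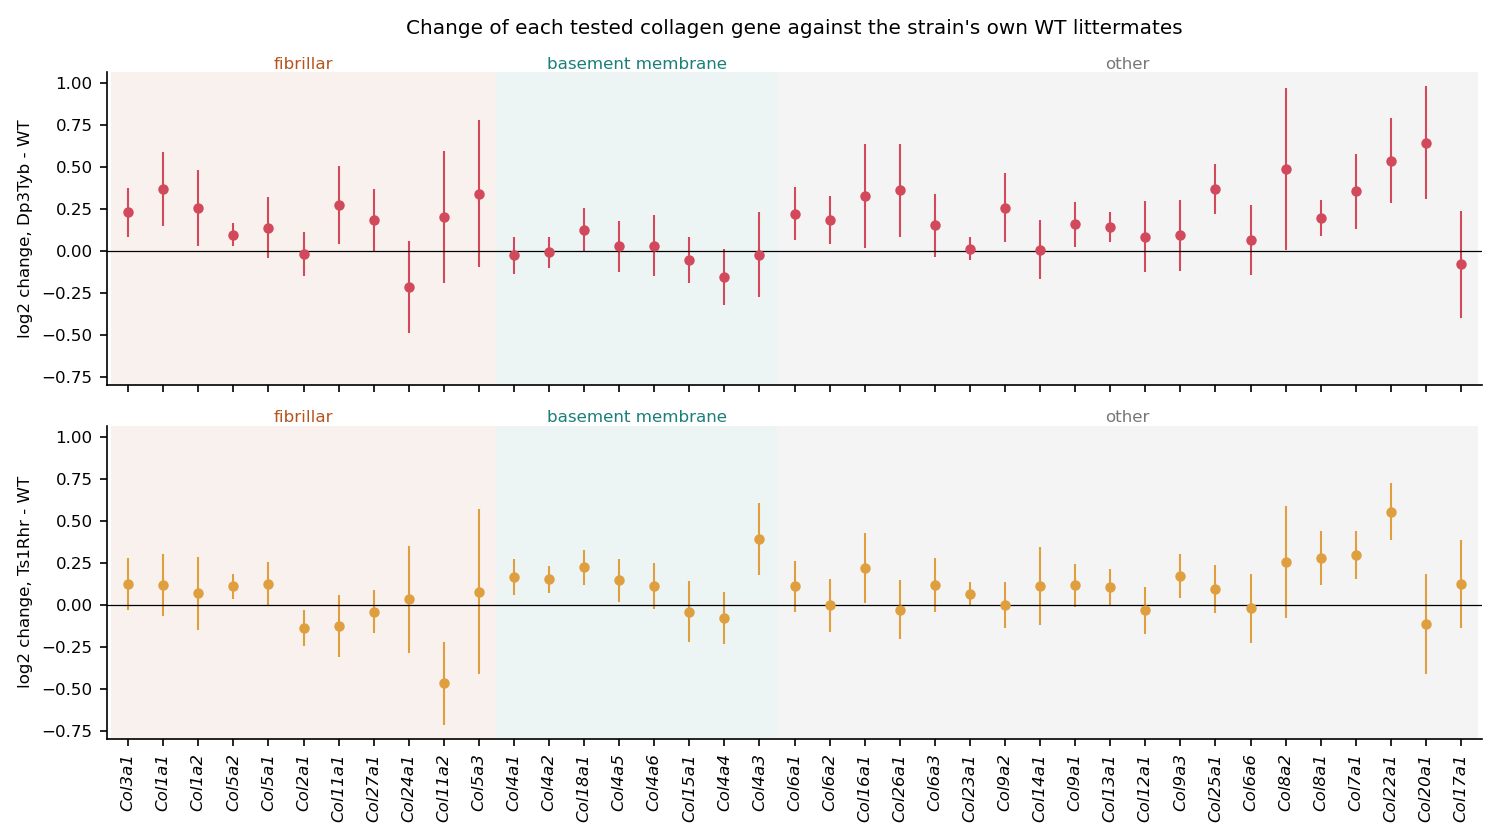
Log2 change of each of 39 collagen genes in Dp3Tyb (upper panel) and Ts1Rhr hearts (lower panel) against the strain's own WT littermates, on the log2(normalised reads + 1) scale. Points are limma coefficients and bars are ± 1 SE, with 5 hearts in each group. Most points lie above 0 outside the basement membrane band in Dp3Tyb, and none passed an adjusted p under 0.05.

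The difference between the strains was tested directly as an interaction over all 20 hearts, where 41 collagens were tested. Called were 0 of 41, against 0.013% of all genes, and 0 had an unadjusted p under 0.05, against 1.52%. DESeq2, edgeR and limma-voom gave 0 and 0 as well. The largest difference was that of Col20a1, at 0.76 higher in Dp3Tyb with an interval from -0.19 to 1.71. For Col1a1 the difference was 0.25 (-0.38 to 0.89) and for Col4a1 -0.19 (-0.52 to 0.13), so neither can be called equal or different at this size. All 8 basement membrane genes had a difference below 0 (median -0.11) and 9 of 11 fibrillar genes one above 0 (median 0.19), where 50.4% of all genes were above 0 and 24 of 41 collagens. With the marker score as a term 2 of the 41 differences were above 0, against 49.9% of all genes, and without the 5 hearts of low score 1 was, against 48.8%.

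Before a strain was involved, the WT hearts of both sets were compared. Of 41 collagens 0 were called by limma (0% of all genes), and 1 had an unadjusted p under 0.05, against 5.84%. That was Col13a1, a membrane-spanning collagen of the neuromuscular junction, higher by 0.21 in the littermates of Ts1Rhr (unadjusted p = 0.0466). All 11 fibrillar genes were above 0 in that direction, with a median of 0.08, and so were 29 of 41 collagens and 50.9% of all genes. Without WT littermate 5 of Dp3Tyb, the shallowest library, 14 of 41 collagens were above 0 (49.8% of all genes). Low lung and foregut marker scores were found in 3 of the 5 WT littermates of Dp3Tyb and in 0 of the 5 of Ts1Rhr, and their part in this was not tested.

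Genes that act on collagens after translation begins were described from lists of 5 roles. In hydroxylation, folding and secretion, 25 of 25 listed genes were tested and 0 were called in either strain. The smallest p in Dp3Tyb was that of Colgalt1, a galactosyltransferase that modifies collagen hydroxylysine, with 1688 to 1791 normalised reads in WT and 1765 to 1971 in Dp3Tyb hearts and a log2 change of 0.12 (95% interval 0.005 to 0.24, adjusted p = 1.0). In Ts1Rhr it was P3h1, a prolyl 3-hydroxylase of type I collagen, with 825 to 1181 in WT and 1011 to 1308 in Ts1Rhr hearts and a change of 0.23 (0.01 to 0.45, adjusted p = 0.795). In both cases the groups overlapped.

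Of the 15 genes listed for propeptide removal and cross-linking, 13 were tested in Dp3Tyb and 12 in Ts1Rhr, and 0 were called. The smallest p in both strains was that of Pcolce, which enhances removal of the C-propeptide of fibrillar procollagens. It changed by 0.19 in Dp3Tyb (-0.15 to 0.52) and by 0.33 in Ts1Rhr (0.10 to 0.57, adjusted p = 0.795), over 779 to 1105 normalised reads in WT and 999 to 1360 in Ts1Rhr hearts. Among collagen receptors, 13 of 14 were tested and 0 called. Mrc2, an endocytic receptor that takes up collagen, had the smallest p in both, with changes of 0.24 (-0.24 to 0.73) and 0.27 (-0.07 to 0.61). Of 32 matrix partners, all tested, 0 were called, with Tnc, tenascin C, at 0.19 in Dp3Tyb (0.03 to 0.34) and Tnxb, a tenascin that binds collagen fibrils, at 0.54 in Ts1Rhr (0.11 to 0.96).

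Turnover genes gave the smallest p of the 5 lists. Of 23 listed, 17 were tested and 0 called by limma, against 0.0542% of all genes in Dp3Tyb and 0.0269% in Ts1Rhr. At an unadjusted p under 0.05, 3 were higher in Dp3Tyb and 5 in Ts1Rhr and 0 lower, against 2.8% and 5.52% of all genes in either direction. In the other lists, taken in the order above, 1, 0, 0 and 1 were higher in Dp3Tyb and 2, 3, 0 and 1 in Ts1Rhr. Ctsk, cathepsin K, a protease that cleaves triple-helical collagen, had 197, 189, 189, 170 and 176 normalised reads in WT hearts and 216, 236, 270, 269 and 246 in Dp3Tyb hearts. The groups did not overlap, as in 0.975% of all genes, and the log2 change was 0.42 ± 0.09 (SE), with an unadjusted p of 0.000596 and an adjusted p of 0.440 by limma. In the Ts1Rhr set, the WT hearts had 184, 165, 176, 142 and 204 and the Ts1Rhr hearts 207, 209, 210, 225 and 267. Again the groups did not overlap, and the change was 0.36 (0.12 to 0.61, unadjusted p = 0.00733, adjusted p = 0.795). Ctsk is not in 3 copies in either strain.

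Collagen levels varied widely between hearts. Col1a1 ranged over 2.91-fold and Col3a1 over 2.06-fold across the 20 hearts. To describe this, each collagen was fitted on a score of lung and foregut markers, the per-heart mean of centred log2 levels over the 12 of 13 markers expressed (Sftpc, the surfactant gene, was at 0 in 15 libraries and at 3.62 normalised reads at most). The fit held the 4 group means, so that slopes came from hearts within a group. Scores fell into separate ranges, from -2.65 to -1.99 in 5 hearts and from -0.33 to 1.72 in the other 15. The lung epithelial factor Nkx2-1 was at 0 in 4 libraries and reached 56.1 elsewhere, and Shh was at 0 in 5, Foxa1 and Foxa2 in 2 each, and Sox2 and Cdh1 in 1 each. By contrast Irx2 stayed between 209 and 303 and Krt18 between 205 and 285.

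Many fibrillar and other collagens rose with this score, and no basement membrane collagen passed the test. Smooth muscle markers split the same hearts by their mean level but not by their sum. The mean centred log2 level of 4 such markers was -0.57 to -0.16 in the 5 hearts of low score and -0.13 to 0.37 in the other 15, without overlap. Myh11, the smooth muscle myosin, ran from 50.6 to 1248 normalised reads over the 20. Acta2 ran from 11773 to 15609, Cnn1 from 2274 to 3398 and Tagln from 2036 to 3249. Summed, the 4 markers were at 18473 to 22150 in the hearts of low score and at 17100 to 21948 in the others. Mean centred log2 levels of fibroblast and mesenchyme markers were -0.16 to 0.0088 and -0.096 to 0.18, those of endothelium 0.020 to 0.13 and -0.20 to 0.088, and those of cardiomyocytes 0.0056 to 0.35 and -0.40 to 0.29, all overlapping. The part of these markers in the slopes was not tested. Of 41 genes, 16 were called, all with positive slopes, against 3.52% of all genes called higher and 4.08% called in either direction. They were 7 of 11 fibrillar, 0 of 8 basement membrane and 9 of 22 other genes. At an unadjusted p under 0.05 there were 24 collagens (13% of all genes), 0 of them of the basement membrane. The coefficient was above 0 in 36 of 41, against 47.3% of all genes, and the median slope was 0.19 for fibrillar, 0.16 for other and -0.01 for basement membrane genes, against -0.003 over all genes.

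Among fibrillar genes, Col1a1 rose by 0.22 ± 0.04 (SE) on the log2 scale per unit of score (adjusted p = 0.00111), Col1a2 by 0.23 (adjusted p = 0.00346), Col3a1 by 0.15 (adjusted p = 0.00916) and Col11a1, a partner of cartilage type II fibrils, by 0.24 (adjusted p = 0.00029). Col11a2, Col27a1 and Col5a3 were called too, with slopes of 0.34, 0.16 and 0.45. Col1a1 was at 14777 to 22852 normalised reads in the 5 hearts of low score and at 21330 to 43024 in the other 15, so the ranges barely met. Col5a2 had a slope of 0.05 and missed the threshold (adjusted p = 0.0505).

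All 3 main chains of type VI collagen were called, with slopes of 0.16 for Col6a1, 0.16 for Col6a2 and 0.19 for Col6a3. Col6a2 was at 1987 to 2308 in the hearts of low score and at 2343 to 3982 in the others, and these ranges did not overlap. Col26a1, known from developing reproductive tissue, also separated the hearts, with 285 to 512 against 532 to 932 and a slope of 0.25. Col9a2 and Col12a1, collagens on the fibril surface, had slopes of 0.19 and 0.18. The steepest slope was that of Col28a1, 0.63 ± 0.15 (adjusted p = 0.0162), at 0.888 to 4.57 normalised reads in the hearts of low score and 1.91 to 30.4 in the others, in libraries with 1 to 42 reads of it. Col25a1 and Col6a6 completed the 16.

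The abundant basement membrane genes had slopes near 0. Col4a1 was at 11973 to 17992 normalised reads in the hearts of low score and 11815 to 17603 in the others, with a slope of -0.01 (95% interval -0.08 to 0.05). The slope of Col4a2 was -0.03 (-0.08 to 0.02) and that of Col18a1 -0.03 (-0.10 to 0.05). The basement membrane genes took 28.1% to 31.2% of collagen reads in the 5 hearts of low score and 19.1% to 26.8% in the other 15, without overlap.

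The slopes were of like size within each strain's set of 10 hearts, where fewer passed. Called were 2 of 39 in the Dp3Tyb set and 1 of 39 in the Ts1Rhr set, against 0.596% and 1.11% of all genes. At an unadjusted p under 0.05 there were 21 and 16, against 7.56% and 8.13%, and Col1a1 had slopes of 0.23 and 0.20. Among the 15 hearts without a low score 2 were called (0.355% of all genes) and 15 had an unadjusted p under 0.05 (6.06%), with Col1a1 at 0.31 and Col3a1 at 0.17. With the mitochondrial share as a further term 23 were called (12.2% of all genes), among them Col4a1 (-0.04), Col4a2 (-0.04) and Col18a1 (-0.05) with negative slopes. Whether the extra collagen reads came from lung or foregut tissue or from the heart was not tested.

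**Figure D3:**
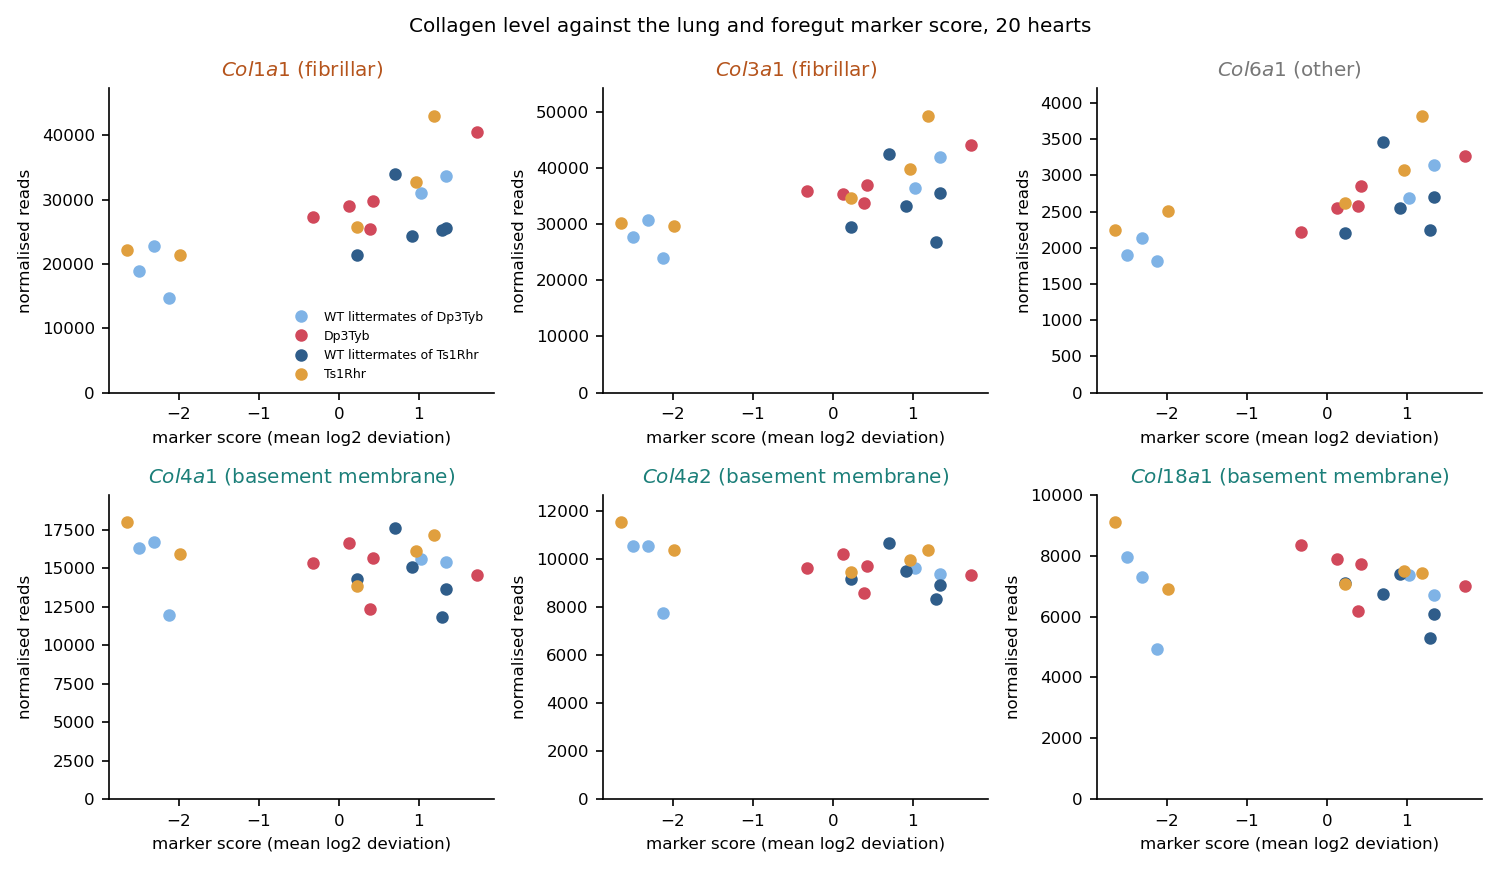
Normalised reads of 6 collagens against the lung and foregut marker score (mean log2 deviation over 12 markers) in 20 hearts, coloured by group. Values of Col1a1, Col3a1 and Col6a1 in the 5 hearts with scores under -1.5 lie at the low end of the range, while those of Col4a1, Col4a2 and Col18a1 spread over most of it.

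Matrix genes outside the collagens were uneven on the same score, on which 4.08% of all genes were called and 13% had an unadjusted p under 0.05. In the list of hydroxylation, folding and secretion, 0 of 25 were called by limma and 2 had an unadjusted p under 0.05. Lox, the lysyl oxidase that cross-links collagen, rose by 0.19 per unit (adjusted p = 0.000713) and its relative Loxl2 changed by -0.05 (adjusted p = 0.0325), the only 2 of 14 in their list. Ddr2, a receptor for fibrillar collagen, rose by 0.28 and was the only one called of 13 receptors. Of 17 turnover genes 3 were called, Fap (0.70), Reck (0.12) and Mmp11 (0.16), and of 32 matrix partners 5 were called, Matn2 (0.29), Ogn (0.19), Dcn (0.17), Thbs2 (0.17) and Lum (0.09). Dcn and Lum are also in the list of fibroblast markers.

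Collagens took 0.533% to 0.941% of reads in the 7 libraries with over 10% mitochondrial reads and 0.918% to 1.48% in the other 13. Since mitochondrial reads are part of that total, the share falls partly by construction, and of the remaining reads collagens took 0.662% to 1.07% and 0.969% to 1.57%. Cardiomyocyte markers had a mean centred log2 level of 0.032 to 0.35 in the 7 and -0.40 to 0.055 in the 13, and their part was not tested. Fitted on the mitochondrial percentage with the 4 group means, 20 of 41 collagens were called, all negative, where 61.4% of all genes were called and 31.7% were called lower. They were 7 fibrillar, 5 basement membrane and 8 other genes. Col4a6 fell by 0.06 and Col4a5 by 0.05 on the log2 scale per percentage point (adjusted p = 6.01e-11 and 3.05e-10). Col4a5 had 2639 to 3753 normalised reads in the 7 libraries and 4036 to 4699 in the other 13, without overlap. Col8a2, a short-chain collagen, had the steepest slope, -0.14. Without those 7 the mitochondrial share spanned only 4.85% to 7.17%, and 0 collagens were called by limma (0.0333% of all genes), with 3 at an unadjusted p under 0.05 (7.13%). The slope was then -0.31 ± 0.27 (SE) for Col1a1 and -0.22 ± 0.17 for Col3a1, and without WT littermate 5 of Dp3Tyb alone (19.5% mitochondrial reads, the shallowest library) 10 were called, where 52.1% of all genes were.

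**Figure D4:**
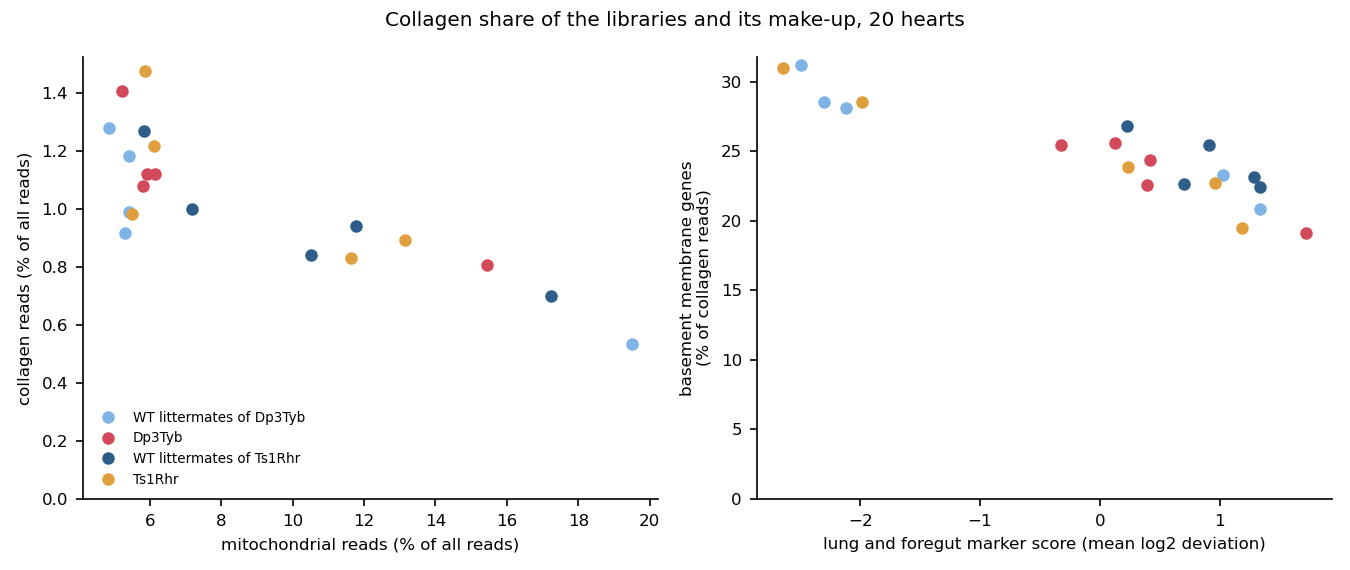
Left, collagen reads against mitochondrial reads, both as a percentage of all reads, in 20 hearts; right, the percentage of collagen reads from the 8 basement membrane genes against the lung and foregut marker score. Each point is 1 heart, coloured by group. With mitochondrial reads in the total, collagen shares are at most 0.941% in the 7 libraries with over 10% of them, and the 5 hearts of low score have the 5 highest basement membrane shares.

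**Figure D5:**
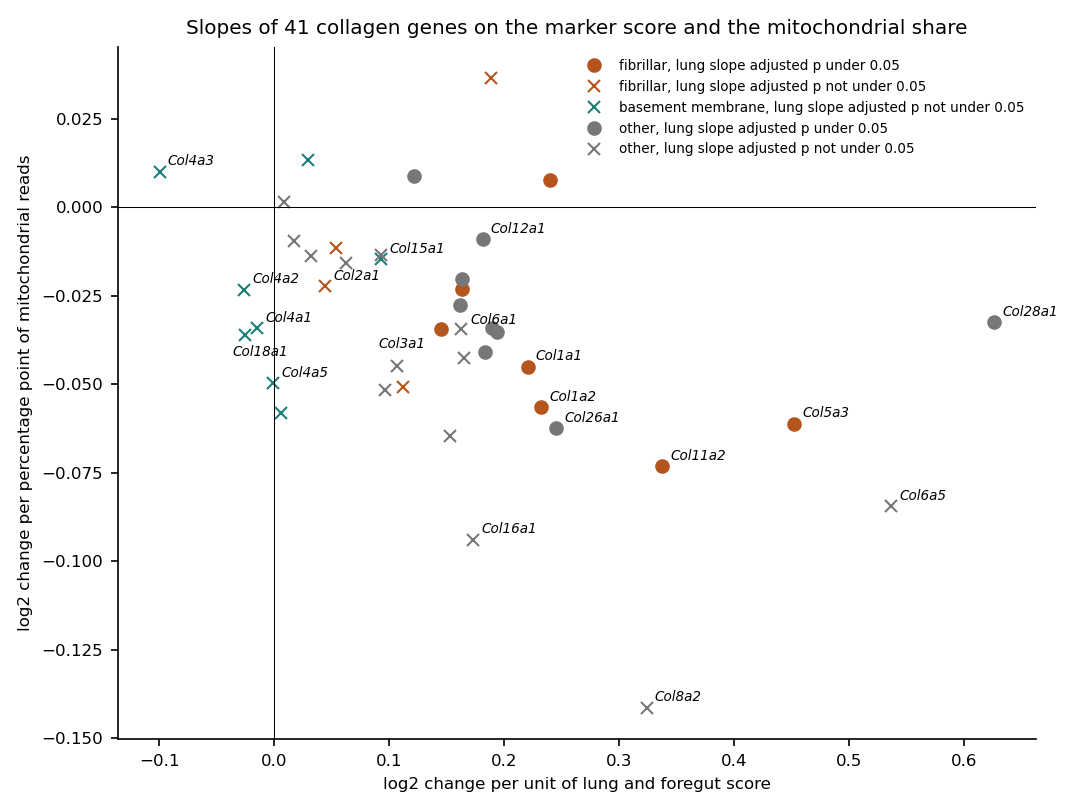
Slope of each of 41 collagen genes on the lung and foregut marker score (horizontal, log2 change per unit) and on the mitochondrial share (vertical, log2 change per percentage point), both within groups over 20 hearts. Colours give the class, circles mark an adjusted p under 0.05 and crosses a larger one for the horizontal slope. The basement membrane genes lie between -0.10 and 0.09 on the horizontal axis, and 16 fibrillar and other genes are called to the right of it.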

How the data were processed

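RNAseq was carried out on 20 E13.5 mouse hearts, 5 in each of 4 groups. The authors deposited 1 table of normalised read values per gene, a signal already divided by a size factor per library. The submitters' processing notes name Trimmomatic 0.36, STAR 2.5.2a, RSEM 1.2.31, DESeq, DESeq2 and the GRCm38 build. Whole reads were recovered from 100% of the values (tolerance 1e-06). Gene class and transcript length came from a GENCODE annotation of another build, in which 91.3% of the 48795 gene identifiers were found, and coordinates and promoters from RefSeq GRCm38.p6.

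Groups were compared with limma 3.58.1 (R 4.3.3) on log2(value + 1), with trend and robust settings, two-sided, after keeping genes at 10 or more in at least 5 of the libraries fitted. Fold changes on this scale understate the change of low genes. Each strain was fitted with its own WT hearts (10 libraries). The difference between strains, the comparison of WT groups and the slopes used all 20. P values were adjusted by Benjamini-Hochberg over all genes tested, with a threshold of 0.05. DESeq2 1.42.0, edgeR 4.0.16 and limma-voom on the recovered reads, other filters, scalings and covariates and the omission of each library were alternatives, and the fits were tested on simulated data.

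Collagens were named when past the adjusted or the unadjusted threshold in a strain or between strains, when 1 of the 2 highest per kb in a class, or as counterparts of human chromosome 21 genes. Listed matrix genes were named when called or of the smallest p in a strain. Other collagens named for a level, a slope or groups that did not overlap, and the split of hearts by marker score, were chosen after their values were seen. The members and lists were chosen with earlier results of these data known. The study's methods describe mutants and controls as littermates and samples as biological replicates, so each library was taken as 1 heart.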

Additional observations from a re-analysis of the deposited data

Results flagged for a closer look

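In 2 of 40 groups of 5 hearts looked at, 1 heart stood apart from the others by Dixon's test, and chance alone gives about 1 in 20. Col4a1 in WT littermate 5 of Dp3Tyb was at 11973 normalised reads, while the other 4 were at 15414 to 16708. That library was the shallowest and had 19.5% mitochondrial reads. Col18a1 in Ts1Rhr heart 3 was at 9099, while the other 4 were at 6907 to 7508. That heart had the lowest lung and foregut marker score of all 20, at -2.65.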

How the results depend on the processing

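The count of collagens called stayed at 0 in each strain under 14 alternatives and 10 omissions of a library. The lowest adjusted p of any collagen, by the test of each fit, was 0.243 to 1 in Dp3Tyb and 0.172 to 0.999 in Ts1Rhr. Counts at an unadjusted p under 0.05 moved more, over 0 to 7 in Dp3Tyb and 1 to 12 in Ts1Rhr. The share of all genes at that threshold was 1.83% to 11% and 3.39% to 17.9% in those fits. No paired analysis was possible because the labels give no replicate numbers shared between groups. The depth limits low genes such as Col22a1 and Col4a3. Without the hearts of low marker score (an alternative chosen after seeing the data), the Dp3Tyb median was -0.12, Col1a1 -0.11, Col3a1 -0.078, Col6a1 -0.12 and Col6a2 -0.12. With the marker score as a term, Dp3Tyb Col6a1 was -0.021, Col6a2 -0.031 and Col4a2 0.0092, and with the mitochondrial share as well (also chosen later) they were -0.00941, -0.026 and 0.041, with Col4a1 at 0.010. Col4a2 in Dp3Tyb was 0.0041 with limma-voom and 0.030 with quantile normalisation. Col6a2 in Ts1Rhr was 0.014 with DESeq2, 0.016 with edgeR, 0.028 with quantile normalisation, 0.21 with array weights, 0.23 with the marker score, 0.20 without hearts of low score and 0.17 with both terms. Omitting single libraries gave -0.11 to 0.042 for Col4a1 and -0.079 to 0.033 for Col4a2 in Dp3Tyb, and -0.038 to 0.22 for Col1a1, -0.00091 to 0.22 for Col6a1 and -0.13 to 0.086 for Col6a2 in Ts1Rhr. Collagens with a slope on the marker score numbered 2 within the Dp3Tyb set (0.596% of all genes), 1 within the Ts1Rhr set (1.11%) and 2 without hearts of low score (0.355%), all with fewer samples, and the Col4a1 slope was 0.0042 within the Dp3Tyb set. Collagens with a slope on the mitochondrial share numbered 18 of 39 within the Dp3Tyb set (57.8% of all genes), 9 of 39 within the Ts1Rhr set (38%), 0 without libraries over 10% (0.0333%) and 10 to 22 when single libraries were omitted, with 10 without WT littermate 5 of Dp3Tyb (52.1%). The Col12a1 slope on that share was 0.00038 within the Ts1Rhr set, 6.59e-05 with the marker score and -0.014 to 0.00048 over omissions. Without libraries over 10%, the slope of Col11a1 was -0.35 and that of Col18a1 0.078. DESeq2 called 34 genes of all in Dp3Tyb where limma called 8, and 25 in Ts1Rhr where limma called 4. The cause of these shifts was not tested.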
